A study of Mus musculus with 4 samples.

Results

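Replication-dependent histone genes are the multi-copy genes that supply the core histones H2A, H2B, H3 and H4 and the linker histone H1 while DNA is copied. The 63 members were all RefSeq protein-coding genes of mouse chromosomes 1 to 19 and X (GRCm38.p6, of 21631 such genes) named H1f1 to H1f6 or H2ac, H2bc, H3c or H4c with a number. They comprised 6 H1, 17 H2A, 16 H2B, 12 H3 and 12 H4 genes, and the rule used no measured value. Set on the deposited peaks, their bodies and the 5 kb on each side held 12 of 77713 peak summits on these chromosomes.

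These mRNAs are made in S phase, carry no introns in their usual short form and end in a stem-loop, bound by the protein SLBP, in place of a poly(A) tail. Their clusters are transcribed in a nuclear structure, the histone locus body, which forms around the transcription co-activator NPAT. An octamer of H2A-H2B and H3-H4 wraps DNA into the nucleosome, and H1 binds the linker DNA between nucleosomes. H2A and H2B genes often stand head to head with a shared promoter.

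The libraries came from 4T1-TGL, a BALBC mouse breast cancer cell line of genotype WT grown in DMEM/F12 medium, and were 4 in number: pull-downs with the Even and Odd oligonucleotide pools against Malat1, a pull-down titled Lacz, and an input titled as that of the Even pool. Malat1 is a long noncoding RNA of nuclear speckles, and the assay (ChIRP) sequences the DNA recovered together with that RNA. LacZ probes are commonly the non-targeting control of this assay. The deposited peaks come from 1 merged treatment of 851227 tags against 50030325 tags of input, so no value has a replicate error, and no library can be set against another. No file gives expression, so neither the cell line nor the transcription of the histone genes could be checked.

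The members lay in 3 clusters, taken as runs of members with gaps of at most 1 Mb. The first chromosome 13 cluster held 22 members over 328 kb, the second chromosome 13 cluster 31 over 404 kb and the chromosome 3 cluster 10 over 50.3 kb. Between the chromosome 13 clusters lay 1.49 Mb with 41 protein-coding genes, 36 of them Vmn1r pheromone receptor genes.

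Of the 59 member promoters in the RefSeq table (250 bases before to 50 after an annotated start, GRCm38.p6, 58 of the 63 members), 1 met a peak, that of H2ac21, against 1.92% of all 32851 promoters of the table. It is shown as the only one of them. H2ac21 encodes an H2A protein and is the first member of the chromosome 3 cluster. The promoter is chr3:96219635-96219934 on the plus strand, and the capitals mark the peak, chr3:96219648-96219829, which lies wholly inside it.
H2ac21: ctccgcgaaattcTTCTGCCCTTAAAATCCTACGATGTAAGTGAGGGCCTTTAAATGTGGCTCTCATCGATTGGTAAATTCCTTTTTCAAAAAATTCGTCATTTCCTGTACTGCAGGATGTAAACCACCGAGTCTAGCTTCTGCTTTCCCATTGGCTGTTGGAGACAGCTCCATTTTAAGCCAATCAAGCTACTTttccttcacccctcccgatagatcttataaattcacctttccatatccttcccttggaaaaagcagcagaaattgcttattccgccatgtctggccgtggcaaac

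The next summit upstream of a start was that at H4c3, an H4 gene of the second chromosome 13 cluster, 337 bp away. The promoter of H4c3, chr13:23698409-23698708 on the minus strand, ends short of the peak at chr13:23698746-23698846. H2bc8, an H2B gene of the same cluster, is shown as the member beside the peak shared by the most members, 5. Its promoter is chr13:23571150-23571449 on the plus strand, and it shares 279 bp with that of its head-to-head partner H2ac8. In both sequences the capitals mark matches, on either strand, to the TATA box TATAAA, the CAAT box CCAAT or the octamer core ATGCAAA.
H4c3: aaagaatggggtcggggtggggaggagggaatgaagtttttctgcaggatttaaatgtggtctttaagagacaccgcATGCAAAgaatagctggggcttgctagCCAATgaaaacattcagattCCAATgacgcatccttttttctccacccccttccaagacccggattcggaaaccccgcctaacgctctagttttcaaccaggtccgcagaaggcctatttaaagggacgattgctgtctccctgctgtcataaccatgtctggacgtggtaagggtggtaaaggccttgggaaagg
H2bc8: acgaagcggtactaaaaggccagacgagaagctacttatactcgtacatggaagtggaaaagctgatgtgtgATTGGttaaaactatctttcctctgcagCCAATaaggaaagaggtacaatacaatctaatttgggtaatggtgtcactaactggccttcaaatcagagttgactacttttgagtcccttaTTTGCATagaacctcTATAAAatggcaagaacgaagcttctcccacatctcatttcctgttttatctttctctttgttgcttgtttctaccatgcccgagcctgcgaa

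The last 2 sequences show how alike the copies are. H4c17 (chr13:21811496-21811795, plus strand) and H4c18 (chr13:21832148-21832447, minus strand) are H4 genes of the first chromosome 13 cluster, and 285 of the 300 bases of each promoter lie in stretches of at least 25 bases found in the promoter of another member elsewhere. Capitals mark TATAAA. A peak lay 1579 bp downstream of H4c18, whereas H4c17 had no summit within 5 kb. The reads were of 76 bases per the labels, MACS took a tag size of 25 bp per the file header, and the sources used here do not say how reads that match several copies were placed.
H4c17: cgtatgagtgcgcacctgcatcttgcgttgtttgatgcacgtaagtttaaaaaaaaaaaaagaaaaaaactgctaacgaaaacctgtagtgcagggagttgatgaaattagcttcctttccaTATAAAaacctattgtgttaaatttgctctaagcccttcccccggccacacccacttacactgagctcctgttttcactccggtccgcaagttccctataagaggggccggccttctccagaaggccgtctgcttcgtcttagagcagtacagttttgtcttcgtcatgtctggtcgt
H4c18: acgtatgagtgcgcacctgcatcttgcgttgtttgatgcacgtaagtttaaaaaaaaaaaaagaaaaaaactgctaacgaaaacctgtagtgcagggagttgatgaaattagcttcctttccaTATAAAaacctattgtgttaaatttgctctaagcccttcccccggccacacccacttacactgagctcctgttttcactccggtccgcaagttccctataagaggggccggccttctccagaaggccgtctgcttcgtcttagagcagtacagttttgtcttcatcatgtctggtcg

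Such sharing was also found at other members, and how often the promoters of other genes share stretches was not counted. A stretch of 25 bases was shared with the promoter of a member elsewhere in 17 of 59 promoters, and in 11 the shared stretches covered at least 200 bases. These 11 included H3c14 and H3c15, with 284 bases each, and H4c11 and H4c12, with 219 each. At the read length of 76 bases a stretch was shared by 9 of 59 promoters, those of H3c14, H3c15, H2ac18, H2ac19, H2bc23, H2ac23, H4c17, H4c18 and H2ac24. H4c11 and H4c12 were not among these. The peak in the promoter of H2ac21 held 0 such bases. For these 9, or for all 17 if reads were aligned over 25 bases only, the absence of a peak in the promoter is uncertain. Member promoters were compared only with each other, so copies elsewhere in the genome were not looked for. The bodies themselves were not compared here.

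The first question was which histone genes had a peak. Inside or at most 5 kb from 23 of the 63 members (36.5%) lay a summit, against a background of 60.8% of all protein-coding genes. The members are short, with a median of 492 bp against 17.3 kb for all protein-coding genes, and a longer gene has a longer window. Of the 58 members of at most 1 kb, 20 had a summit (34.5%), against 18.4% of all 1441 protein-coding genes of that size. The members stand side by side and share peaks, so the 23 are not 23 separate events: the 12 peaks made 25 pairs of a member with a peak, and 8 of the peaks counted for 2 or more members. Within 1 kb of the body the count was 6 of 63 members, against 51.0% of all protein-coding genes, and in the body alone 2, against 47.9%.

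**Figure D1:**
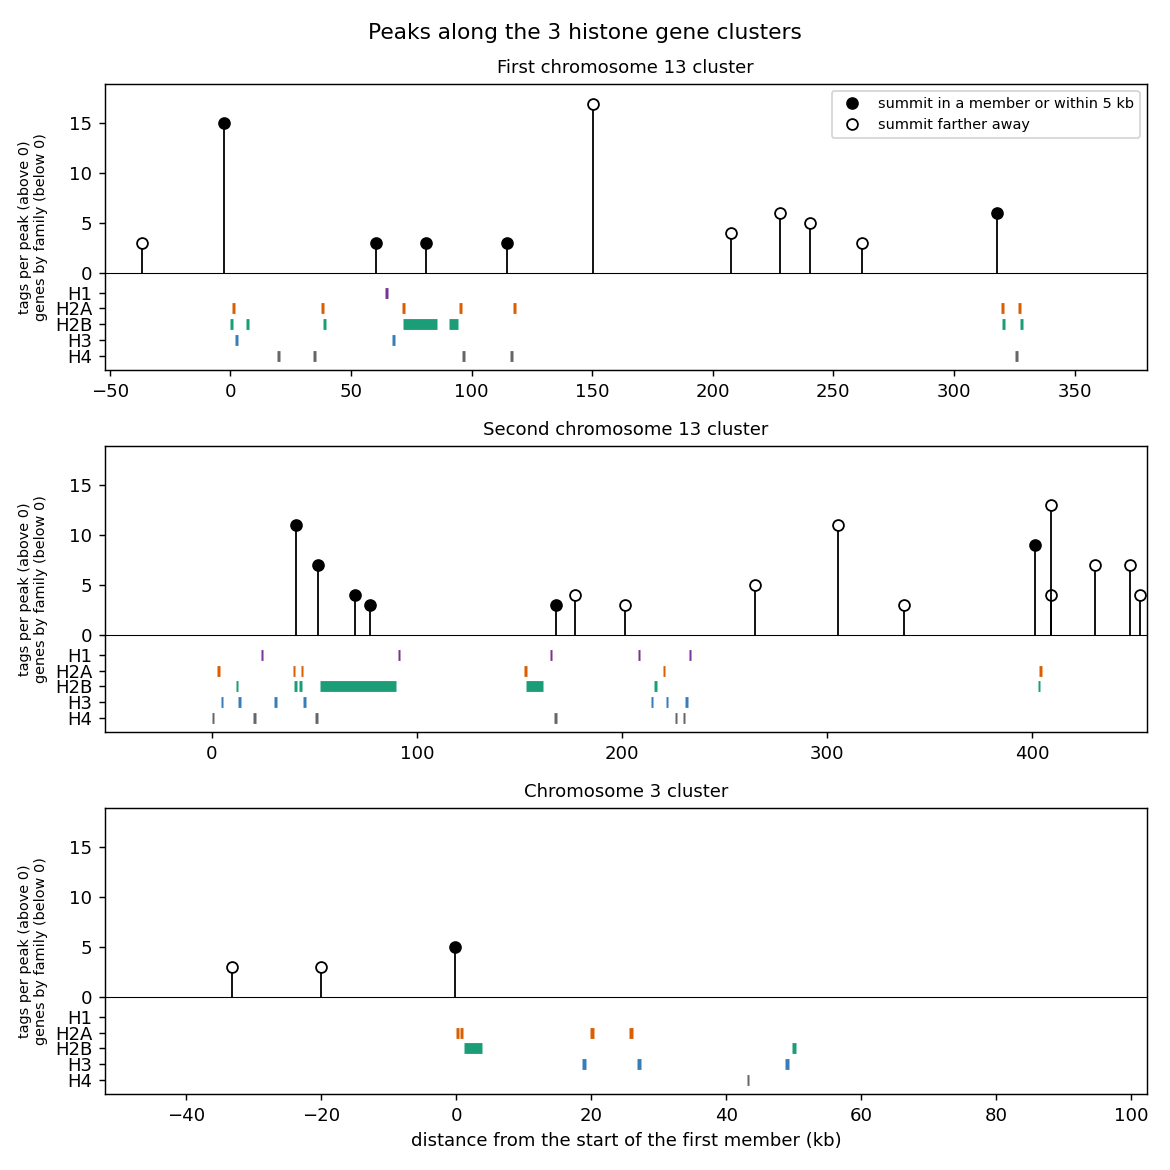
Peaks along the 3 clusters. The x axis is the distance in kb from the start of the first member, stems above 0 give the treatment tags of each peak, bars below 0 are the members by family (short genes drawn wider than they are), filled circles are summits in or within 5 kb of a member and open circles are summits farther away. The filled stems of 15 and 11 tags stand at the first members of the first cluster and within the second, and the chromosome 3 cluster has 1 filled stem, of 5 tags, at its first member.

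H2A and H2B genes made up most of the 23. A summit was present at 8 of 17 H2A genes (47.1%), 8 of 16 H2B genes (50%), 2 of 12 H3 genes (16.7%), 3 of 12 H4 genes (25%) and 2 of 6 H1 genes (33.3%). These counts rest on shared peaks, such as that of the neighbours H2ac8, H2bc8, H2bc7, H2ac7 and H3c4, and the difference between families was not tested.

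**Figure D2:**
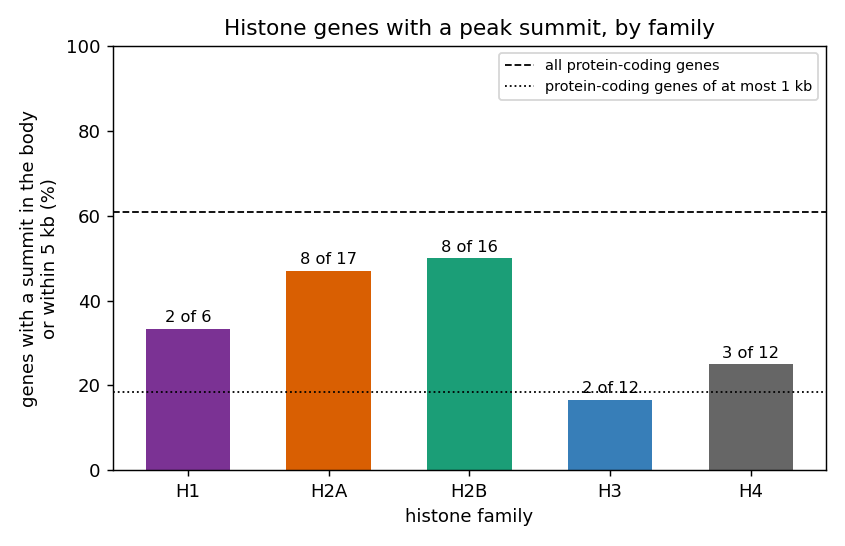
Members with a summit by histone family. Bars give the percent of genes with a summit inside or at most 5 kb away, from 16.7% of H3 to 50% of H2B genes, with the counts above them, the dashed line marks the 60.8% of all protein-coding genes and the dotted line the 18.4% of those of at most 1 kb.

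None of the summits fell inside a histone gene of the usual short form. The bodies of the 58 members of at most 1 kb spanned 30.4 kb together and held 0 summits. The density of the surroundings predicted 0.669 summits over that length, and a count of 0 allows up to 98.6 per Mb, so a lower density in the bodies was not detectable at this depth. Among all 1441 protein-coding genes of at most 1 kb, 34 (2.36%) had a summit in the body. Of the 5 members over 1 kb, 2 had summits in the body, both H2B genes with long annotated forms. H2bc6 spans 37455 bp, and both summits in its body lay between its 2 annotated starts. The summit with 3 tags was 12753 bp downstream of the far start, and that with 4 tags was at -14982 bp from the near one, upstream of it. In H2bc22, which spans 14079 bp, the summit lay 9430 bp downstream of the start. H2bc4, H2bc21 and H2bc23, the other members over 1 kb, held no summit in the body.

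The peaks of the first chromosome 13 cluster were 5, over 9 of its 22 members. The strongest by tags lay at 21712797 to 21713104, with 15 tags and an authors' fold enrichment of 252 (tag height at the summit over the highest local level of the scaled input). It stood outside the row of genes, 2810 bp downstream of H2bc13, 3511 bp upstream of H2ac13 and 4727 bp upstream of H3c10, an H3 gene. A peak of 6 tags and fold 233 at 22033328 to 22033474 lay 1747 bp downstream of H2ac12 and 2446 bp upstream of its partner H2bc12. The other 3 peaks of this cluster held 3 tags each, the fewest that any peak of the list holds. They lay 3580 bp downstream of H1f5, a linker histone gene (fold 151), in H2bc22 (fold 120) and 1579 bp downstream of H4c18 and 2811 bp downstream of H2ac24 (fold 120).

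The second chromosome 13 cluster held 6 peaks over 11 of its 31 members. The peak at 23572197 to 23572454, with 11 tags and fold 205, lay between facing genes, 514 bp downstream of H2bc8 and 1383 bp downstream of H2bc7. It was also within 5 kb upstream of H2ac8, H2ac7 and H3c4. A peak of 9 tags at 23932445 to 23932652 had the highest fold of the 12, 292. It lay 1191 bp downstream of H2bc1 and 1903 bp upstream of H2ac1, the pair listed under the synonyms Th2b and Th2a, whose proteins are known from the testis. A peak of 7 tags and fold 175 lay 569 bp downstream of H2bc6 and 1132 bp downstream of H4c4. The remaining 3 were the 2 in the body of H2bc6, with 4 and 3 tags and folds of 103 and 120, and a peak of 3 tags and fold 180 upstream of H4c3. H1f6, the testis H1 gene on the other side of H4c3, had this summit 2250 bp downstream.

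The chromosome 3 cluster had 1 peak, that in the H2ac21 promoter, over 3 of its 10 members. It held 5 tags, with a summit height of 4 tags and a fold of 211, rank 17081 of 77713. Its summit lay 189 bp upstream of H2ac21, 717 bp downstream of H2ac20, another H2A gene, and 1376 bp from H2bc21, an H2B gene with no strand in the promoter table.

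The 5 kb limit decided some of these. Just inside it was the summit 4727 bp from H3c10. Just outside were summits 5.26 kb and 5.51 kb from H2ac1, with 4 tags and fold 166 and with 13 tags and fold 482. Both lay in or within 1 kb of the predicted lncRNA gene Gm33516, named after its values were seen, and the farther had a higher fold than any of the 12. The peak of 9 tags and fold 292 near H2bc1 and H2ac1 was also within 1 kb of Gm33516.

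No summit lay within 5 kb of the other 40 members. In the first chromosome 13 cluster these 13 were H2bc14, H4c11, H4c12, H2ac15, H2bc15, H3c11, H2ac22, H2bc23, H2ac23, H4c17, H4c9, H2ac11 and H2bc11. In the second they were 20: H4c8, H2ac10, H3c8, H2bc9, H3c7, H4c6, H1f3, H3c6, H1f4, H2ac6, H2bc4, H1f2, H3c3, H2bc3, H2ac4, H3c2, H4c2, H4c1, H3c1 and H1f1. The longest run without a peak was there, the 9 neighbours of H1f2 to H1f1. On chromosome 3 the 7 were H3c15, H2ac19, H2ac18, H3c14, H4c14, H3c13 and H2bc18, a run that includes every H3 gene of that cluster.

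In strength the cluster peaks lay within the range of the list. The 12 held 72 tags in all, with a median of 4.5 tags (range 3 to 15), against 5 for all peaks on these chromosomes. Their median fold was 177 (range 103 to 292), against 133, and 8 of 12 reached the median fold of the list. Few tags give a large fold at this depth: a height of 3 tags over input at the genome mean gives 179.5. Median summit height was 3 tags in both sets. Of the 12 peaks, 5 (41.7%) held 3 tags, against 37.2% of all peaks, and 0 held at least 30 tags, against 4.01%.

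The input implied by the fold was near its lower limit at most of these peaks. The implied input is the summit height divided by the fold, in units of the genome-wide background of 0.0167 tags per fragment length, and cannot lie below 1. A value of 1 therefore stands for input at or below the genome mean. Its median was 1.025 at the 12 peaks (range 1.00 to 1.74), against 1.403 at all peaks, 1.15 at the 2712 peaks of chromosome 13 and 1.24 at the 3536 of chromosome 3. It was under 1.2 at 10 of the 12. The exceptions were the shared peak near H2bc8, at 1.46, and the peak of 4 tags in H2bc6, at 1.74. Because the implied input is computed from the height and the fold, it is not a separate measure. With a median height of 3 tags in both sets, its lower median largely restates the higher median fold of the cluster peaks.

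**Figure D3:**
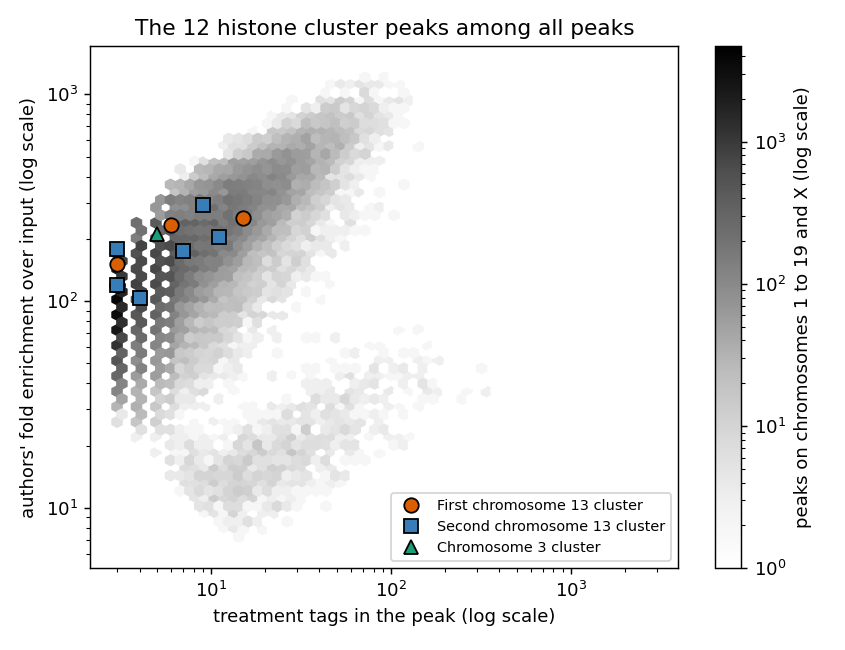
The 12 cluster peaks among all peaks. The x axis gives treatment tags per peak and the y axis the authors' fold enrichment, both on log scales, grey hexagons count the 77713 peaks and coloured symbols are the cluster peaks, some of which coincide at 3 tags. The 12 lie between 3 and 15 tags and between folds of 103 and 292, inside the main cloud.

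The next question was whether summits were denser at histone genes than around them. Merged over neighbours, the member bodies and their 5 kb covered 337 kb with 35.6 summits per Mb (95% exact Poisson interval 18.4 to 62.1, counting error only). The rest of the clusters and the 1 Mb on each side held 131 summits in 5.95 Mb, or 22.0 per Mb (18.4 to 26.1). These intervals overlap. By cluster the density was 43.8 per Mb (14.2 to 102) against 20.7 in the first of chromosome 13, 34.6 (12.7 to 75.4) against 27.7 in the second and 20.01 (0.507 to 111) against 15.4 on chromosome 3. The chromosome 13 clusters are 1.49 Mb apart, so their surroundings overlap and these comparisons are not separate. All of chromosome 13 held 23.1 summits per Mb, all of chromosome 3 held 22.1 and the autosomes together 31.5, which is inside the interval of the members. Between the chromosome 13 clusters there were 30 summits, 20.3 per Mb.

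By tags the contrast was smaller. Peaks at the members held 213 tags per Mb, against 168 around them. In the second chromosome 13 cluster the order was the other way, with 214 tags per Mb at the members and 229 around them. The first cluster had 263 against 182, and chromosome 3 had 100.03 against 82.6, from 1 peak.

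**Figure D4:**
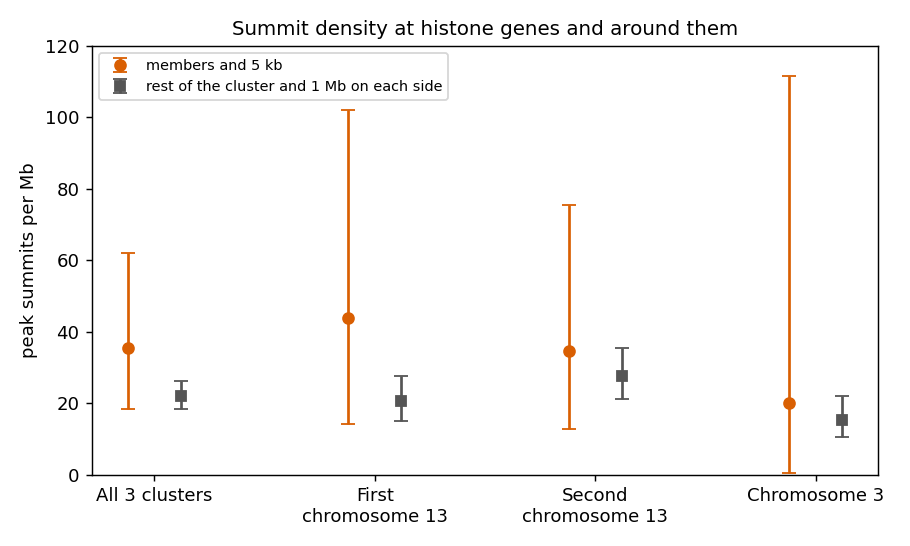
Summit density at histone genes and around them. Orange circles give summits per Mb in the member bodies and 5 kb, grey squares those in the rest of each cluster and 1 Mb on each side, and bars are 95% exact Poisson intervals of counting error. The circle is above the square in all 3 clusters (35.6 against 22.0 over all), and each pair of intervals overlaps. The chromosome 3 circle is 1 peak, and the surroundings of the chromosome 13 clusters overlap.

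Gene by gene, no member passed a test for more summits than its flanks predict. Each protein-coding gene's summits in the body and 5 kb were compared with those in 250 kb on each side by a one-sided exact binomial test, with Benjamini-Hochberg adjustment over 21071 genes. The background was 7 genes called, or 0.0332%, and of the 63 members 0 passed (exact binomial, adjusted p = 1 for each). At an unadjusted p under 0.05 the count was 840 genes (3.99%) and 0 members. The lowest unadjusted p of a member was 0.115 (exact binomial), for H2bc6, with 3 summits where 1.04 were predicted. H2ac21 had 1 where 0.105 was predicted (exact binomial p = 0.117). The median member had 0.250 predicted, and for 49 members 2 summits would have been needed for an unadjusted p under 0.05, so the test could not tell 1 summit from its surroundings. Every member with a summit had more than predicted, so the 36.5% of members above prediction are the same 23 of 63 that had a summit. Among all protein-coding genes, which are mostly longer, 40.5% had more than predicted, so the 2 shares are not like for like.

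The promoters of the members held motifs known from histone genes more often than the promoters of the whole table did, while 1 of 59 met a peak, against 1.92% of all promoters. Matches were counted on both strands in the same 300 bases for all 32851 promoters of the table, and no matches of different motifs overlapped in the member promoters. CCAAT, the site of the factor NF-Y, was in 51 of 59 member promoters (86.4%), against 37.4% of all. It was in every H1, H2A, H2B and H3 promoter of the table and in 3 of 11 H4 promoters (27.3%). TATAAA, the letters of the TATA box, was in 34 of 59 (57.6%), against 13.6%. A match counted at any position in the 300 bases. That of H2ac21 lay at -30 bp from the annotated start, and those of H4c17 and H4c18 at -128 and -127 bp. ATGCAAA, the core of the octamer known from H2B promoters and bound by the factor Oct-1, was in 14 of 59 (23.7%), against 4.63%. It was in 7 of 15 H2B promoters, 6 of 17 H2A promoters, 1 of 11 H4 promoters and 0 of the 6 H1 and 10 H3 promoters. Where the windows of an H2A and an H2B gene overlap, 1 site counts for both: the 14 matches to ATGCAAA were 11 sites, with 3 shared (H2ac12 with H2bc12, H2ac8 with H2bc8, H2ac1 with H2bc1), the 138 matches to CCAAT were 106 sites, and the 39 to TATAAA were 33. A match is a description of the letters, not a bound site.

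The peak in the H2ac21 promoter covered its bases 14 to 195, counted from the 5′ end of the 300, and with them all 3 matches to CCAAT, at -181, -100 and -70 bp from the annotated start. The match to TATAAA, at -30 bp, lay downstream of the peak. The promoter of H4c3 is 1 of the 3 with CCAAT among the 11 H4 promoters of the table and the only one of the 11 with ATGCAAA, and it lacked TATAAA.

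**Figure D5:**
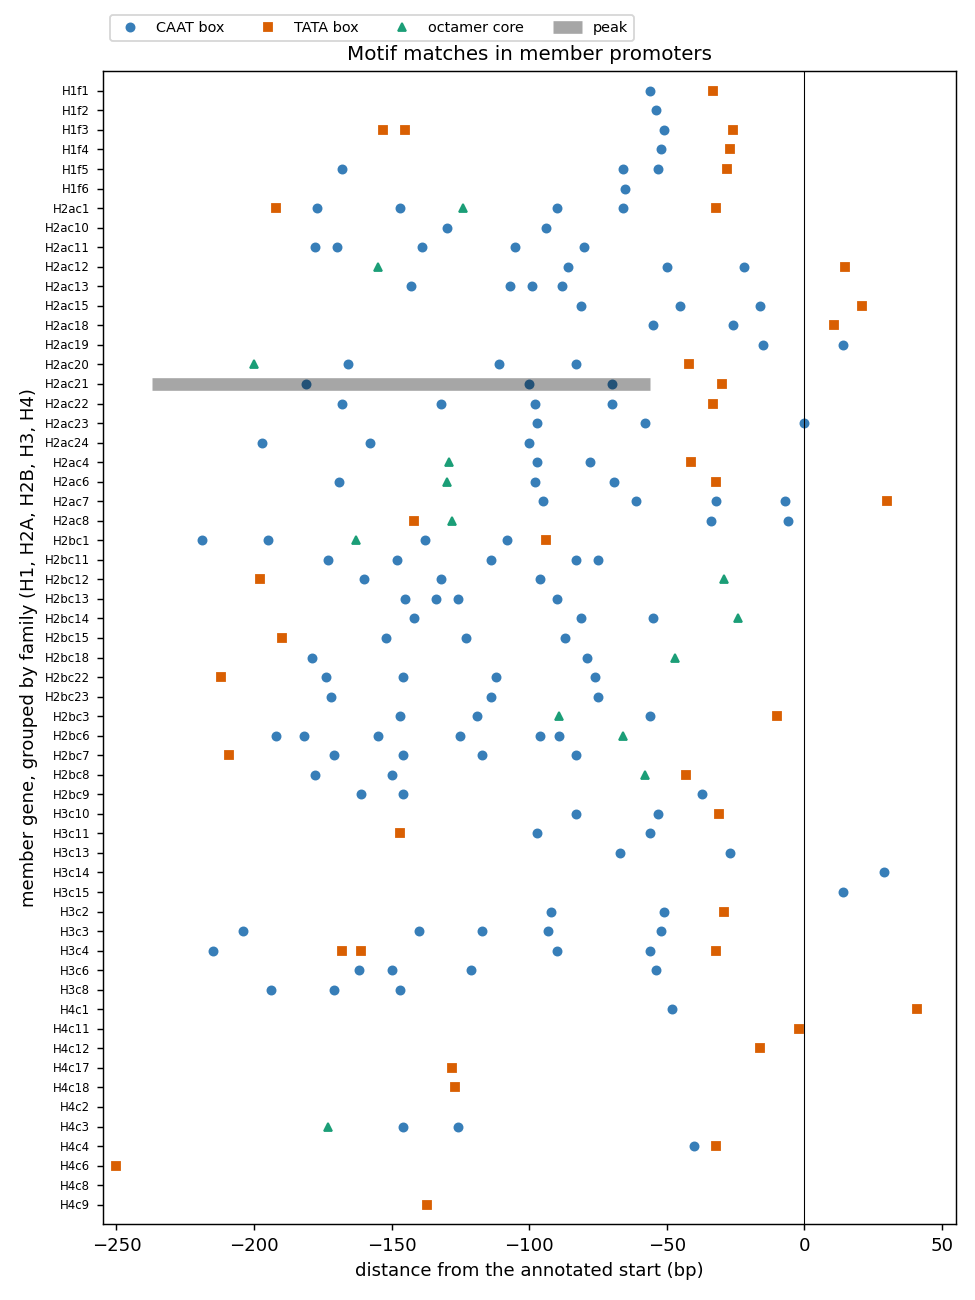
Motif matches in member promoters. Rows are the members in the promoter table, grouped by family, the x axis is the distance in bp from the annotated start, symbols are matches on either strand and the grey bar is the peak in H2ac21. Matches to the CAAT box stand upstream of most H1, H2A, H2B and H3 starts and in 3 of 11 H4 promoters, and the bar covers the 3 of H2ac21.

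Head-to-head pairs gave another view of the shared promoters. The promoter windows of 9 pairs overlapped by 220 to 279 bp, and all 9 joined an H2A with an H2B gene. Both partners had a summit within 5 kb in 5 of them: H2ac13 with H2bc13, H2ac12 with H2bc12, H2ac8 with H2bc8, H2ac7 with H2bc7, and H2ac1 with H2bc1. The pairs of H2ac8 and of H2ac7 rest on 1 and the same peak. Partners lie so close that their windows nearly coincide, so 1 summit mostly counts for both. The 5 members without a promoter in the table could not enter the count of pairs. Among them are H2bc21, which lies beside H2ac20, and H2bc4, which lies beside H2ac6. No such count was made for other neighbouring genes. In each of these 5 pairs the summit lay to 1 side of the pair, downstream of a partner, and no peak met the promoter between them.

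Genes that make or handle histones elsewhere in the genome were set beside the clusters. Of 17 genes for making and ending histone mRNA, 12 had a summit inside or at most 5 kb away (70.6%, median length 17.1 kb). The share of all protein-coding genes was 60.8%. Of the 17, 0 passed the test against their flanks, against 0.0332% of all tested genes. The highest folds were at Cpsf3, the endonuclease that cuts the mRNA end, with 575 and 27 tags, at Npat, the co-activator of the histone locus body, with 359 and 16 tags, at Casp8ap2, another protein of that body, with 304 and 10 tags, and at Eri1, an exonuclease of the histone stem-loop, with 299 and 5 tags. Slbp, which encodes the stem-loop binding protein, had no summit where 1.31 were predicted, and is named after its values were seen.

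Among 11 histone chaperones, which carry histones to and from DNA, 6 had a summit (54.5%, median length 25.3 kb), against 60.8% of all protein-coding genes. Of the 11, 0 passed the test, against 0.0332% of all tested genes. Asf1b led with a fold of 291 and 22 tags, followed by Hira (250.4, 11 tags), Chaf1a (162, 6 tags) and Daxx (158, 8 tags). Nasp, a chaperone of H1 and H3-H4 named after its values were seen, had 4 summits where 0.677 were predicted (exact binomial with Benjamini-Hochberg adjustment, p = 0.974). Of 10 genes listed as replication-independent histone genes, 5 had a summit (50%, median length 6.02 kb), against the same 60.8%. Of the 10, 0 passed the test, against the same 0.0332%. Highest were Macroh2a2 (fold 238, 5 tags) and Macroh2a1 (151, 8 tags), both encoding macroH2A, then H3f3a, an H3.3 gene (133, 3 tags), and H2az1, an H2A.Z gene (120, 4 tags).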

How the data were processed

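The 3 deposited files list the same 77823 peaks, identical in position, score and summit, from 1 run of MACS 1.4.4 on a merged treatment against input, per the file headers. Which pull-downs were merged and the aligner are not given in the sources used here. Positions are those of mm10 (GRCm38), as the submitters' processing notes say. That run kept 1 tag per position and scaled the deeper input down, with a p cutoff of 1e-05. The deposited tag count gives the treatment tags in a peak as whole numbers, the fold is the authors' ratio over local input, the score, -10 times log10 of the p-value, served to order peaks and, in 1 alternative, to filter them, the summit height is the deposited signal (pileup), and the deposited false discovery rate is 0 percent throughout. All are the peak caller's own values. They were used to describe peaks within this list.

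The members and gene lists were chosen with earlier results of these data known. A planned comparison of protein sequences was not run. Genes and promoters were RefSeq GRCm38.p6, from C57BL/6J, whereas the cells are BALBC. Summits were assigned with pandas 2.3.3, and the exact binomial test used scipy 1.17.1, with 250 kb flanks, after a check on simulated data. The simulation added far more summits to a gene than any member holds. It therefore does not show what the test can detect at the members. Every member with a summit is named with its best peak. So are the 4 genes with the highest fold of each other list. Intervals cover counting error only. Alternatives changed the window, the peaks used, the overlap rule, the gap between clusters and the flanks.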

Additional observations from a re-analysis of the deposited data

How the results depend on the processing

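The count of members with a summit and the count of peaks over the clusters depended on the distance allowed around a gene. With 1 kb in place of 5 kb there were 6 members (9.52%, against 51% of all protein-coding genes) and 7 peaks, and with the body alone 2 members (3.17%, against 47.9%) and 3 peaks. Peaks of more than 3 tags numbered 7 over the clusters, with 17 members (27%, against 49.4%), and those of a score of at least 100 numbered 6, also with 17 members (against 42.6%). There were 33 members and 16 peaks with 10 kb (52.4%, against 69.4%), 20 and 8 with folds at or above the median (31.7%, against 45.5%) and 23 and 12 by overlap of intervals (36.5%, against 61%). A gap of 100 kb gave 5 clusters in place of 3, and gaps of 500 kb and 2 Mb gave 3 and 2. No member passed the exact binomial test under any of the 4 alternatives. Unadjusted exact binomial p was under 0.05 for 3 members without 3-tag peaks (H2ac21, H2ac20 and H2bc21, which share 1 peak, lowest p = 0.0406) and for 0 with the other flanks, while 2 to 17 of all genes passed after adjustment. The 23 of 38 other histone-related genes with a summit (60.5%, against 60.8% of all protein-coding genes) became 18 with the body alone (47.4%, against 47.9%) and 27 with 10 kb (71.1%, against 69.4%). Stretches of 76 in place of 25 bases, an alternative chosen after seeing the data, were shared by 9 in place of 17 member promoters. At 3 to 15 tags a peak, depth limits every comparison here. No paired analysis was possible because the series has 1 merged peak list and 1 library per group.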

Other observations

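Not all summits in the cluster spans lay near a histone gene. In the spans of the chromosome 13 clusters, 5 summits each lay farther than 5 kb from any member. In the first of them the strongest peak, at 21865847 to 21866130 holding 17 tags at fold 359, lay outside annotated genes, 32.5 kb from H2ac24. In the second they included a peak of 4 tags and fold 222 in or within 1 kb of Hfe, the iron regulator gene. Another, of 11 tags and fold 265, lay in or within 1 kb of Slc17a3, a member of a transporter family. These were named after their values were seen.

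Histone genes whose symbols fall outside the naming rule were also looked up after the results were seen. On chromosome 11, H2aw had 1 summit within 5 kb (4 tags, fold 120), and its neighbours H2bu2 and H3f4 had none. On chromosome 6, H4f16 and H2aj had none, with the nearest summits 27.0 and 21.3 kb away from the gene bodies. H4bc24, in the first chromosome 13 cluster, had the 3-tag peak that H4c18 and H2ac24 share.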
